A study of Mus musculus with 8 samples.

Results

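Bone marrow stroma and niche genes were followed across 8 arrays of sorted mouse bone marrow cells. The members were 10 genes named by symbol (Cxcl12, Lepr, Kitl, Col1a1, Col1a2, Col3a1, Sparc, Pdgfra, Pdgfrb and Acta2), out of 36075 gene names on the array, and they were read by 15 of 55661 probes. All members were taken by name, whatever their signal. The sorted populations were KSL cells, the lineage negative, Kit positive and Sca-1 positive fraction that holds stem and progenitor cells, and Gr cells, a fraction positive for both Gr-1 and Mac-1 that holds granulocytes. The groups, with 2 arrays each, were KSL cells of Vav-Etv2 mice, KSL cells of control mice, Gr cells of Vav-Etv2 mice and Gr cells of control mice. All mice were 6 weeks old and of one strain label, mixed (B6/CBA and others), and the cells were taken straight from the sorter with no later treatment. The Vav-Etv2 mice carry Etv2, an ETS transcription factor of blood and endothelial precursors, and Vav is a gene whose promoter is used to drive expression in blood cells. The labels give neither the construct nor whether an array is 1 animal or a pool, and p-values here cover no spread beyond that among the 8 arrays, which may be technical.

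In bone marrow, the stroma of reticular cells, pericytes, bone-forming cells and vessels holds stem cells in place and feeds them. Cxcl12 is the chemokine that retains stem cells through their receptor Cxcr4, and Kitl is the growth factor that stem cells read through Kit. Lepr and Pdgfra mark perivascular stromal cells, Pdgfrb is the PDGF receptor of pericytes, the collagens and Sparc build the matrix, and Acta2 is smooth muscle actin. Stromal cells are not the target of either sort. In such bulk samples, fewer cells of a type and less RNA per cell cannot be told apart.

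Several members were read by more than 1 probe, and the probes of a gene lie on different stretches of it, so the sequences are shown before the values. Each line gives the last 30 bases of a 60-base probe, 5′ to 3′, as the array files hold it, and capitals mark AATAAA, the letters of the common polyadenylation signal, where they fall in that stretch.
Lepr probe A_55_P2177910, listed for NM_010704: aaccttaccttctcatggcccatgagtaaa
Lepr probe A_55_P2177911, also listed for NM_010704: ttcctgggcacaaggactgaatttccaaaa
Lepr probe A_66_P130517, listed for NM_146146: gcctcaaggttccattccagtagagcctgt
Lepr probe A_55_P2192662, listed for NM_001122899: caaaatgggacagaattttctcattgtata
Cxcl12 probe A_51_P172502, listed for NM_001012477: tgctttcttattcttatttttaatatatga
Cxcl12 probe A_55_P1966204, listed for NM_021704: tatttacctgaAATAAAatctactagttgt
Sparc probe A_55_P2046812, listed for NM_009242: atagatttaactgaatacattaacggtgct
Sparc probe A_55_P2046807, listed for NM_009242: caaAATAAAaagtaacaacttagaaacggc
Col1a2 probe A_51_P182303, listed for NM_007743: tctgtttcaaataagtgaactcaacctaaa
The files place them on build mm9. The 4 Lepr probes, in the order shown, lie on the plus strand at chr4:101452666-101452725, chr4:101464615-101464674, chr4:101487858-101487917 and chr4:101485725-101485784. The Cxcl12 probes lie on the plus strand at chr6:117131227-117131286 and chr6:117125026-117125085. The Sparc probes lie on the minus strand at chr11:55208939-55208998 and chr11:55208003-55208061, and the Col1a2 probe lies on the plus strand at chr6:4490619-4490678. Among members with 1 probe, Col1a1 is read at chr11:94813115-94813174, Col3a1 at chr1:45405589-45405648, Kitl at chr10:99558962-99559021, Pdgfra at chr5:75593888-75593947 and Acta2 at chr19:34316060-34316119. Exons and UTRs of mm9 were not analysed here.

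Levels below are log2 signals relative to the array's 75th percentile, and a level is compared between arrays, never between probes. A probe is called well above background where the scanner software says so. Of the 10 members, 8 had a probe well above background on at least 2 of 8 arrays and were tested. Col3a1 and Pdgfra did not. Col1a1 passed only through the Gr arrays, Kitl only through 1 Gr array of each genotype and Pdgfrb only through the KSL arrays, so their differences between cell types are partly built into the filter.

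The arrays were checked first. The 75th percentile of the signal lay between 136 and 300, from 47.7% to 55.5% of probes were well above background, and the KSL arrays lay on slide row 1 and the Gr arrays on slide row 2, so slide row and cell type cannot be told apart. Etv2 was at 0.19 and -1.24 in KSL Vav-Etv2 arrays 1 and 2, against -4.37 and -4.73 in the KSL controls. It was at -0.55 and -1.29 in the Gr Vav-Etv2 arrays. Gr control 1 read -4.48, but the second Gr array that carries a control label read -0.54, well above background and against that label. Comparisons with Gr controls use it under its label, and the members' values against each Gr control array stand beside their calls. Xist marked all KSL arrays and both Gr arrays of replicate 1, and Ddx3y marked both Gr arrays of replicate 2, so sex and replicate number coincide in Gr cells. In KSL Vav-Etv2 array 1 the summed signal of 18 endothelial genes was 487 times the 75th percentile signal, against 149 in array 2 and 109 and 106 in the KSL controls. Egfl7 contributed most to this sum on every KSL array, at 8.46 and 6.84 in KSL Vav-Etv2 cells and 5.99 and 6.03 in KSL controls. The median level of the list was 2.94 and 0.19, against -0.76 and -0.90 in the controls. The summed signal of 11 neutrophil genes on KSL Vav-Etv2 array 1 was 247, against 1703 in array 2 and 1691 and 1584 in the controls. Of the sorting markers, Kit, Cd34 and Flt3 were higher on every KSL array than on any Gr array, Itgam was higher on every Gr array, and Ly6a, which encodes Sca-1, read 2.26 to 3.65 on the KSL arrays and 4.48 to 6.33 on the Gr arrays.

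Beyond the members, stromal markers were detected in part. Of 26 reticular and mesenchymal genes, 9 were well above background on all 8 arrays (Ebf1, Vcam1, Nes, Bgn, Fn1, Thy1, Gas6, Igfbp4 and Pparg) and 7 on none, and 14 passed the filter. Of 10 osteoblast lineage genes, 4 passed it, and of 10 pericyte and smooth muscle genes, 5 did. The defining markers Foxc1, Ebf3, Lum, Dcn and Postn of reticular and mesenchymal cells were not well above background on any of the 8 arrays, nor were the pericyte and smooth muscle genes Myh11, Des and Rgs5. Cnn1 was so on 1 array, KSL Vav-Etv2 2, while Tagln, Mcam and Myl9 were so on all 8. The members that were measured are described as signals of the sorted populations, with no stromal cell type assigned to them.

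**Figure D1:**
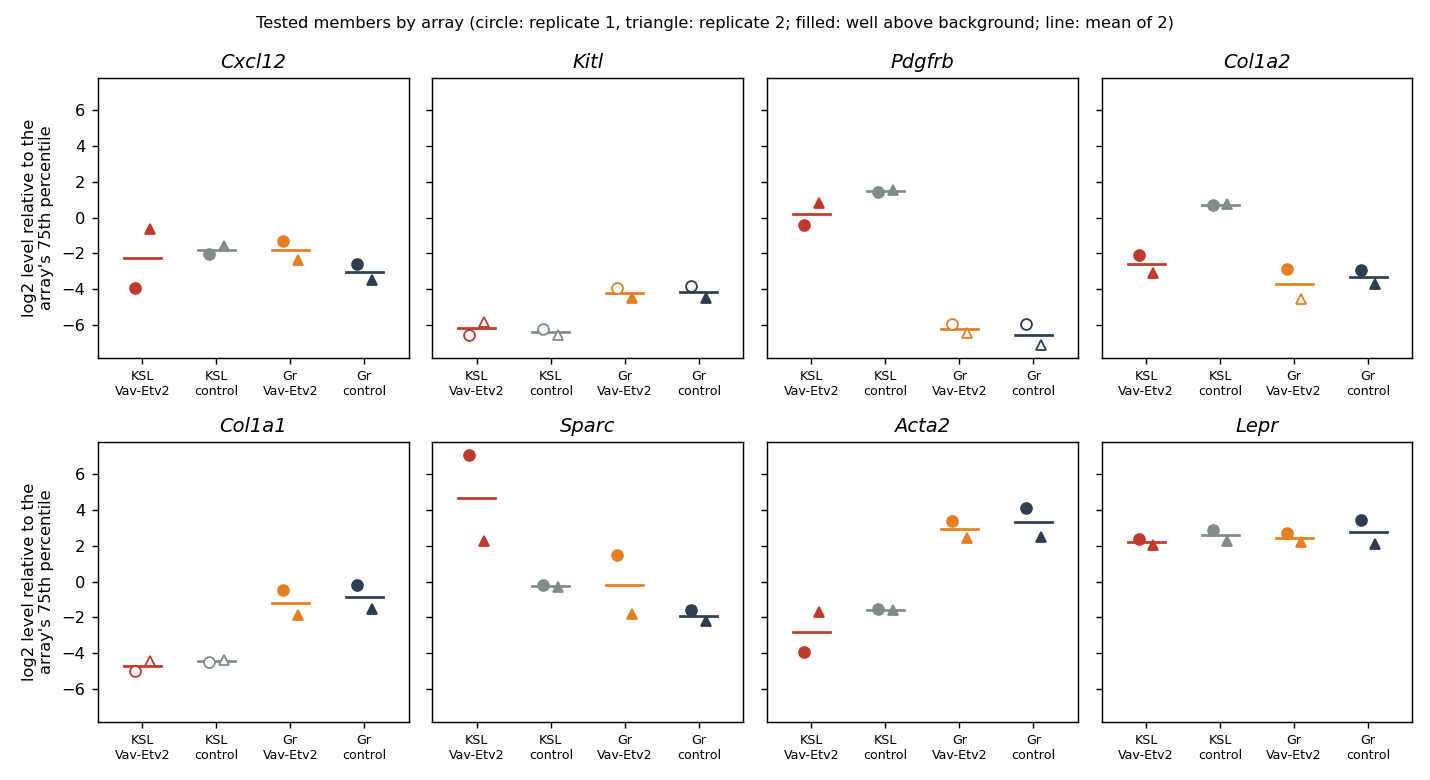
Level of the 8 tested members on each array, as log2 signal relative to the array's 75th percentile (vertical axis), by group (horizontal axis). Circles are replicate 1 and triangles replicate 2, filled where the probe was well above background, and lines are means of 2 arrays. Pdgfrb and Col1a2 stand higher in KSL controls than in Gr cells, Acta2 and Col1a1 stand higher in Gr cells, and Sparc is highest in KSL Vav-Etv2 array 1. Levels of different genes are not comparable.

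Between the sorted populations of control mice, the members split by gene. Pdgfrb and Col1a2 were higher in KSL cells, and Acta2, Col1a1 and Kitl were lower there. In all, 5 of 8 tested members were called at a limma adjusted p under 0.05, 2 higher and 3 lower, where 34.7% of the 23227 features tested were called, 16.2% higher and 18.5% lower. The members' median log2 difference was 0.53, against -0.13 over all features.

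Pdgfrb was at 1.43 and 1.56 in KSL control cells, against -5.96 and -7.12 in Gr control cells, where it was not well above background. Both KSL control arrays stood far above both Gr arrays. In KSL cells it was at least 72.7-fold higher, with a fitted log2 difference of 8.04 ± 0.55 (SE, n = 2 each, limma adjusted p = 0.0007545). Against Gr control 1 alone, the array marked by Xist as the KSL arrays were, the difference was 7.46, and against Gr control 2 it was 8.62. The gene lies on chromosome 18. The other PDGF receptor, Pdgfra, was not well above background on any array, with levels that lay between -7.06 and -5.88.

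Col1a2, the alpha-2 chain of type I collagen, was at 0.73 and 0.74 in KSL control cells and at -2.94 and -3.73 in Gr control cells. It was 16.8-fold higher in KSL cells (log2 difference 4.07 ± 0.62, SE, n = 2 each, limma adjusted p = 0.005325), by 3.67 against Gr control 1 and by 4.47 against Gr control 2. Col1a1, the alpha-1 chain that pairs with it in the same triple helix, went the other way. It was at -4.51 and -4.38 in KSL control cells, not well above background, and at -0.16 and -1.52 in Gr control cells, a level at least 9.97-fold lower in KSL cells (log2 difference -3.61 ± 0.61, adjusted p = 0.00702). It differed by -4.29 against Gr control 1 and by -2.93 against Gr control 2, and without KSL control 1 its adjusted p was 0.05031. Col3a1, the type III chain, was not well above background on any array.

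Acta2 was at -1.53 and -1.60 in KSL control cells, against 4.13 and 2.52 in Gr control cells. The KSL arrays were 29.7-fold lower (log2 difference -4.89 ± 0.84, SE, n = 2 each, limma adjusted p = 0.007514). The difference was -5.70 against Gr control 1 and -4.09 against Gr control 2, and without KSL control 2 the adjusted p was 0.05013. The summed signal of the neutrophil list was 1691 and 1584 in KSL control cells and 11229 and 5039 in Gr control cells. That list holds the sorting marker Itgam and is high in Gr cells by the sort. Any gene higher in Gr cells would move with it. The pericyte and smooth muscle list of 10 genes summed to 37.7 and 50.9 in KSL control cells and 90.4 and 91.4 in Gr control cells, but Mcam alone, an adhesion molecule, made up 85.1% to 98.7% of that sum on the 8 arrays. Tagln, a smooth muscle protein of the list, was at 2.38 and 0.60 in KSL control cells and at 0.78 and 0.24 in Gr control cells, while Myh11 and Des were not well above background on any array. Their part in the Acta2 difference was not tested.

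Kitl was at -6.21 and -6.58 in KSL control cells, not well above background, and at -3.81 and -4.49 in Gr control cells, well above background only on the second array. The fitted difference was -2.25 (SE 0.41, limma adjusted p = 0.00919), but the bound on the level was only at least 1.00-fold lower in KSL cells, and the difference was -2.59 against Gr control 1 and -1.90 against Gr control 2. With signals raised to the lowest one well above background the difference was -0.01 (limma adjusted p = 0.983), and with the normexp background correction it was -0.34 (0.543). It was also lost without KSL control 1 (0.05028) or KSL control 2 (0.06973).

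The same comparison among Vav-Etv2 mice called 4 of 8 members, where 24.2% of features were called, 10.4% higher and 13.8% lower. Pdgfrb was at -0.41 and 0.83 in KSL Vav-Etv2 cells, against -5.94 and -6.46, not well above background, in Gr Vav-Etv2 cells. It was at least 22.7-fold higher in KSL cells (log2 difference 6.42 ± 0.55, adjusted p = 0.001508). Acta2 was at -3.95 and -1.67 in KSL Vav-Etv2 cells and at 3.39 and 2.46 in Gr Vav-Etv2 cells, 53.2-fold lower in KSL cells (log2 difference -5.73 ± 0.84, adjusted p = 0.00595). Col1a1, not well above background in KSL Vav-Etv2 cells, was at least 9.33-fold lower there (limma adjusted p = 0.009192, and 0.05487 without KSL Vav-Etv2 1). Kitl differed by -1.97 (limma adjusted p = 0.0172), with a bound of at least 1.15-fold lower, and lost its call without KSL Vav-Etv2 1 (0.09958) or Gr Vav-Etv2 1 (0.09126). Against Gr Vav-Etv2 array 1, marked by Xist, and array 2, marked by Ddx3y, Pdgfrb differed by 6.16 and 6.68 and Acta2 by -6.20 and -5.26. Col1a2 was not called here, with a log2 difference of 1.13 (SE 0.62, limma adjusted p = 0.2136).

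Between Vav-Etv2 and control KSL cells, the 2 members that differed most were Sparc, which had a higher mean signal in Vav-Etv2 cells, and Col1a2, which had a lower one, and neither passed the test. None of the 8 tested members was called by limma, where 0.0172% of features were called, and 2 of the 8 (Col1a2 and Sparc) had an unadjusted p under 0.05, as did 1725 of the 23227 features. The arrays of the genotypes did not overlap for 4 members, 1 higher and 3 lower in Vav-Etv2 cells, where 51.6% of features did not overlap, 26.2% higher and 25.4% lower. The median log2 difference was -0.42 for the members and 0.00 for all features. Among 36 tested genes of the partner lists described below, limma called 0 in this contrast, and 5 had an unadjusted p under 0.05. It also called 0 of 14 reticular and mesenchymal, 4 osteoblast lineage and 5 pericyte and smooth muscle genes. At an unadjusted p under 0.05 were 0, 1 (Alpl, higher) and 3 (Mcam, higher, and Acta1 and Tagln, lower). Alpl was at 0.19 and -0.58 in KSL Vav-Etv2 cells, against -3.87 and -3.86 in KSL controls (log2 difference 3.67 ± 0.78, limma adjusted p = 0.2587). Of these controls, only array 2 was well above background.

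Col1a2 was at -2.09 and -3.08 in KSL Vav-Etv2 cells and at 0.73 and 0.74 in KSL control cells. Both Vav-Etv2 arrays lay below both controls (log2 difference -3.32 ± 0.62, SE, n = 2 each, limma adjusted p = 0.2038). Leaving out array 1 gave -3.82 and leaving out array 2 gave -2.83, and no alternative gave a call (adjusted p 0.06893 to 0.8715). In Gr cells Col1a2 was at -2.88 and -4.55 in Vav-Etv2 arrays, against -2.94 and -3.73 in control arrays. The KSL effect less the Gr effect was -2.94 (SE 0.88, limma adjusted p = 1.00), so the KSL difference was not shown to differ from the Gr one. Serpinh1, the chaperone that folds procollagen, was the collagen biosynthesis gene with the largest KSL difference, at -3.97 and -3.29 in Vav-Etv2 cells and -1.08 and -1.40 in controls (log2 difference -2.39 ± 0.74, adjusted p = 0.4865).

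Sparc, a collagen-binding matrix protein, was at 7.08 and 2.29 in KSL Vav-Etv2 cells, against -0.20 and -0.28 in KSL control cells. Array 1 stood far above array 2, and both stood above the controls. The means differed 30.3-fold (log2 difference 4.92 ± 1.61, SE, n = 2 each, limma adjusted p = 0.5344). Leaving out array 1 gave 2.53, and leaving out array 2 gave 7.32. The second Sparc probe read 2.61 and -2.85 in KSL Vav-Etv2 cells, against -4.42 and -5.54, not well above background, in KSL control cells. Its level was at least 16.4-fold higher (log2 difference 4.86 ± 1.82, adjusted p = 0.6365 in limma with each probe fitted by itself).

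The endothelial list, too, had its highest summed signal on KSL Vav-Etv2 1. Cdh5, the endothelial cadherin, was at 3.53 and -1.59 in KSL Vav-Etv2 cells, against -3.74 and -3.65 in KSL controls, and all 18 endothelial genes were well above background on KSL Vav-Etv2 1. Of the 17 endothelial genes tested, limma called 0 between KSL genotypes, where 0.0172% of features were called, and 6 had an unadjusted p under 0.05, as did 1725 of 23227 features. The 14 megakaryocyte and platelet genes summed to 261 and 58.5 in KSL Vav-Etv2 cells, against 101 and 116 in controls, so they were high on array 1 and below both controls on array 2. The part of such cells in the Sparc signal was not tested. In Gr cells Sparc was at 1.47 and -1.82 in Vav-Etv2 arrays, against -1.58 and -2.21 in controls (log2 difference 1.72 ± 1.61, adjusted p = 1.00). Within replicate 1 the Gr difference was 3.05, and within replicate 2, where the control array carried the Etv2 signal, it was 0.39. Whether that signal bears on the difference was not tested.

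**Figure D2:**
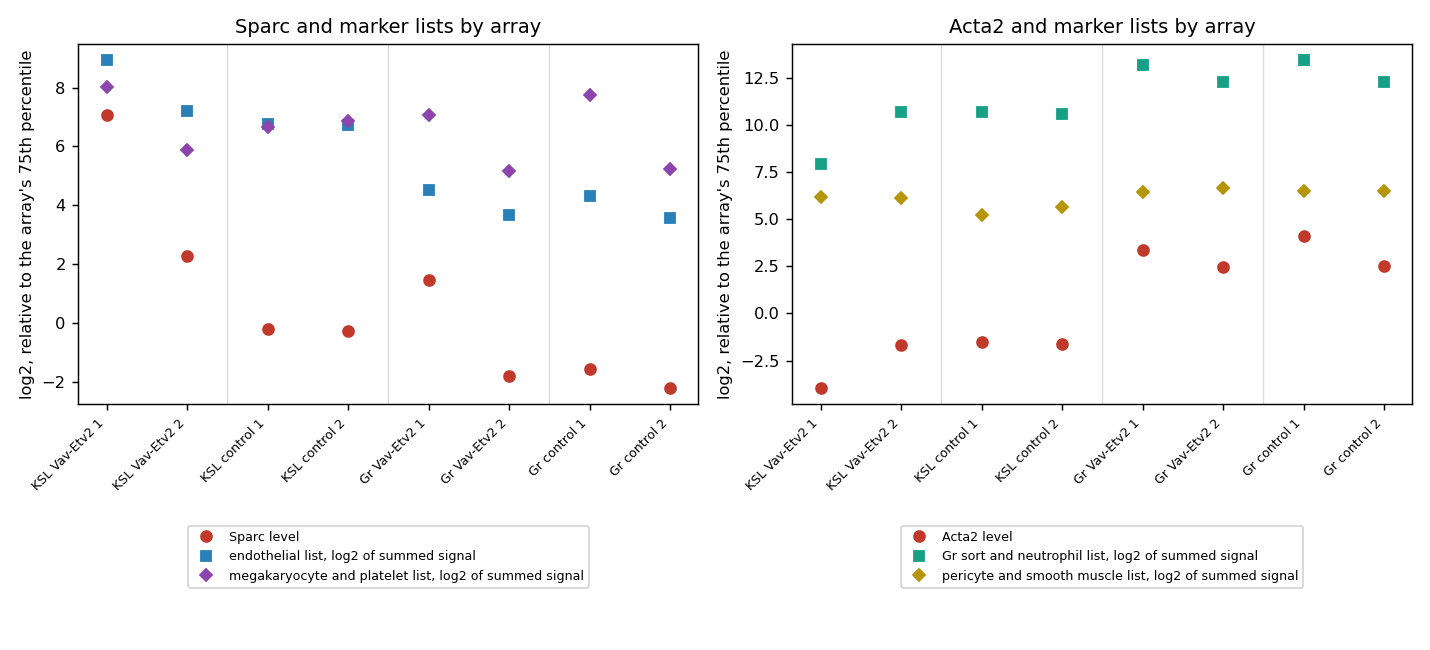
Left, the level of Sparc on each array with the log2 of the summed signal of the endothelial and the megakaryocyte and platelet lists. Right, the level of Acta2 with that of the neutrophil and the pericyte and smooth muscle lists, the last mostly Mcam. The vertical axes are log2 relative to the array's 75th percentile and grey lines separate the groups. Sparc and the endothelial list are both highest on KSL Vav-Etv2 array 1, where the neutrophil list and Acta2 are both lowest.

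Pdgfrb was at -0.41 and 0.83 in KSL Vav-Etv2 cells, against 1.43 and 1.56 in KSL control cells, both below the controls. The log2 difference was -1.28 (SE 0.55, n = 2 and 2, limma adjusted p = 0.6862), and -0.66 without KSL Vav-Etv2 1. Acta2 was at -3.95 and -1.67 in KSL Vav-Etv2 cells and at -1.53 and -1.60 in controls, so that array 1 carried the difference of -1.24 (SE 0.84, limma adjusted p = 0.9358), which was -0.10 without it. Cxcl12 was at -3.93 and -0.61 in KSL Vav-Etv2 cells, against -2.01 and -1.59 in controls, 1 array below and 1 above. Its difference of -0.47 (SE 1.02, limma adjusted p = 1.00) became 1.19 without KSL Vav-Etv2 1.

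Between Vav-Etv2 and control Gr cells none of the 8 tested members was called by limma, where 0.00861% of features were called. Etv2 read -0.54 on Gr control 2 and -1.29 on Gr Vav-Etv2 2, so this comparison does not set arrays with the Etv2 signal against arrays without it. The same limit holds for the test of the difference between the KSL and the Gr effect. No member had an unadjusted p under 0.05, as 296 of 23227 features did. The genotypes did not overlap for 1 member, higher in Vav-Etv2 cells, where 11.6% of features did not overlap, 5.83% higher and 5.79% lower. That member was Cxcl12, at -1.29 and -2.36 in Gr Vav-Etv2 cells and -2.57 and -3.50 in Gr control cells (log2 difference 1.21 ± 1.02, SE, n = 2 each, limma adjusted p = 1.00). The difference was 1.29 within replicate 1 and 1.13 within replicate 2, each of which holds 1 sex by Xist and Ddx3y. The remaining 7 overlapped, with log2 differences from -0.40 (Acta2) to 1.72 (Sparc). The test of the difference between the KSL and the Gr effect called 0 of 8 members, with 1 at an unadjusted p under 0.05, where 0.00431% of features were called.

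**Figure D3:**
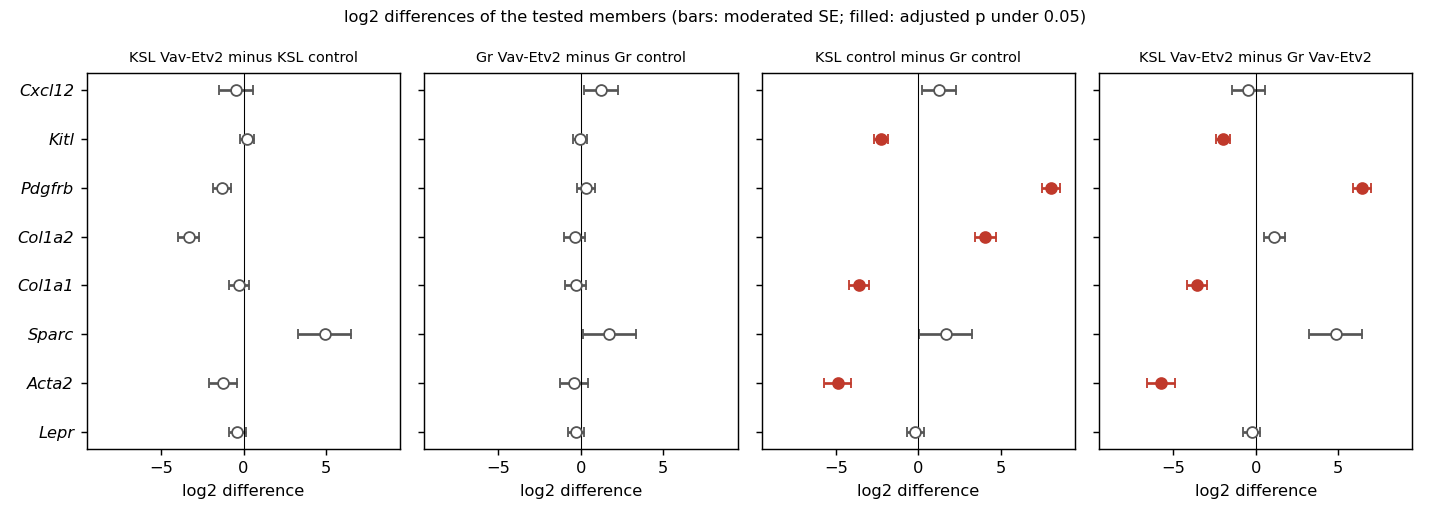
log2 difference of the 8 tested members in 4 comparisons, with bars for limma's moderated SE, filled where the adjusted p was under 0.05. The genotype comparisons hold no filled point. KSL control minus Gr control has 5 and KSL Vav-Etv2 minus Gr Vav-Etv2 has 4.

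Lepr and Cxcl12 gave different readings from probe to probe. The Lepr probe A_55_P2177910 was well above background on all 8 arrays, at 2.38 and 2.05 in KSL Vav-Etv2 cells, 2.89 and 2.29 in KSL controls, 2.72 and 2.21 in Gr Vav-Etv2 cells and 3.45 and 2.09 in Gr controls. All groups overlapped. The other 3 Lepr probes were not well above background on any array, except A_55_P2192662 on Gr control 2. Before scaling, the signal of A_55_P2177910 ranged from 895 to 1485, a ratio of 1.66, and the ratio was 2.62 after the 75th percentile was subtracted. Which transcript, if any, this probe read here was not tested. The Cxcl12 probe A_51_P172502 was well above background on all 8 arrays and the other, A_55_P1966204, on none.

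**Figure D4:**
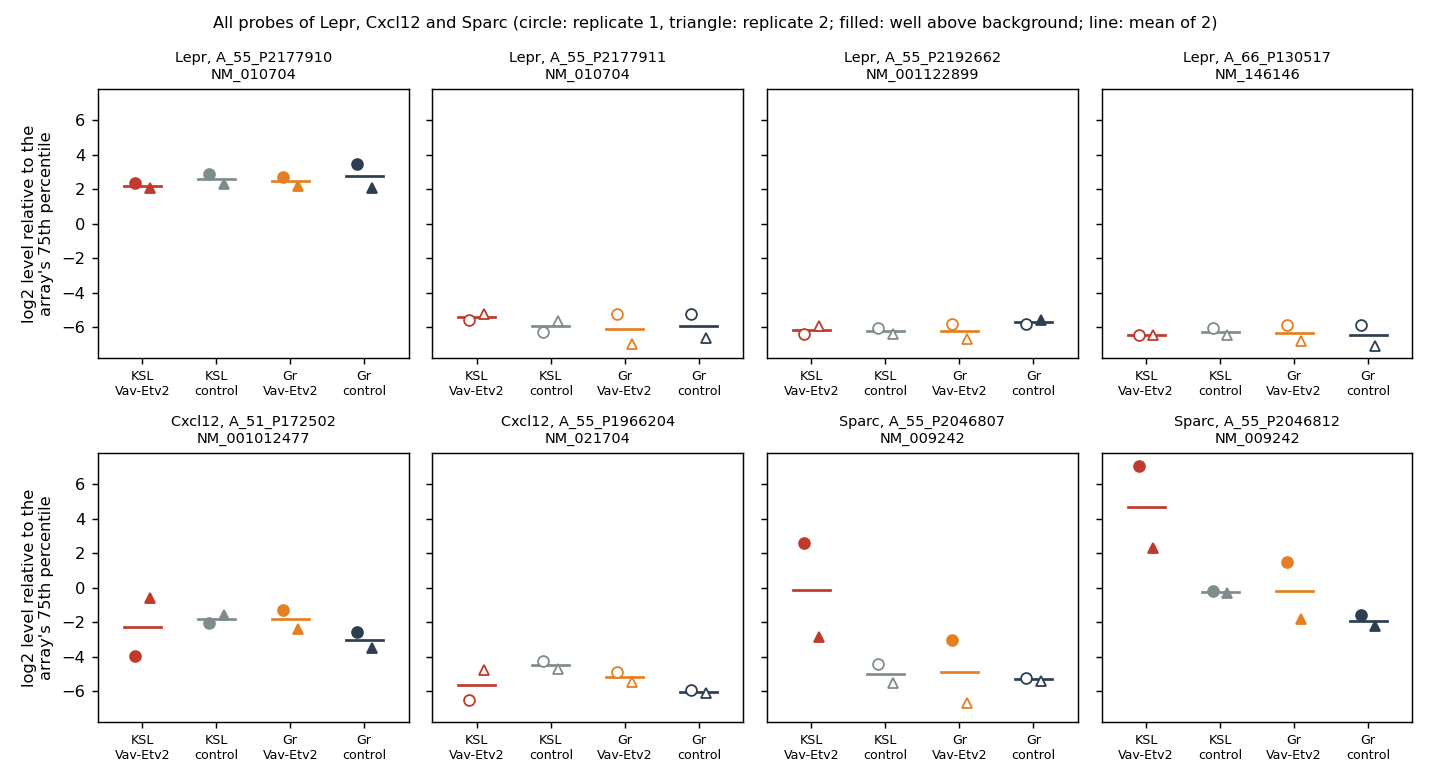
Level of every probe of Lepr, Cxcl12 and Sparc on each array, as log2 signal relative to the array's 75th percentile (vertical axis), by group (horizontal axis). Filled symbols are well above background, and lines are means of 2 arrays. Of 4 Lepr probes 1 is filled throughout, of 2 Cxcl12 probes 1 is, and both Sparc probes are highest on KSL Vav-Etv2 array 1. Heights in different panels are not comparable.

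The partners of the members were read from lists, in which limma also called 0 of 36 genes between Gr genotypes (0 at an unadjusted p under 0.05). Of 4 genes of the CXCL12 axis on the array, 3 were tested. Dpp4, the protease that cleaves Cxcl12, was called higher in KSL than Gr cells (log2 difference 2.47 in control mice, SE 0.46, limma adjusted p = 0.009485), where 16.2% of features were higher. The receptor Cxcr4 was at 1.93 and 2.84 in KSL Vav-Etv2 cells, 2.33 and 2.51 in KSL controls, 4.40 and 3.54 in Gr Vav-Etv2 cells and 4.16 and 3.37 in Gr controls. Ackr3, the scavenger receptor, was not well above background on any array. Of 5 KIT ligand axis genes tested, Kit was higher in KSL control cells (log2 difference 3.21, limma adjusted p = 0.002572). KSL cells are sorted as Kit positive, so this call is largely fixed by the sort. Cbl, Sh2b3 and Grb2, which act downstream of Kit, were lower, where 16.2% of features were higher and 18.5% lower. Between KSL genotypes Kit was at 3.45 and 4.32 in Vav-Etv2 cells and 5.15 and 5.15 in controls (limma adjusted p = 0.4675).

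Of 5 leptin axis genes tested, 0 were called by limma between KSL and Gr control cells (3 had an unadjusted p under 0.05), where 34.7% of features were called and 11085 of 23227 had an unadjusted p under 0.05. Among Vav-Etv2 mice, Stat3 and Jak2 were lower in KSL than Gr cells (limma adjusted p = 0.04206 and 0.04907), where 13.8% of features were lower. Lep, the ligand, was not well above background. Of 2 PDGF ligands tested, Pdgfa was higher in KSL control cells (log2 difference 1.48, limma adjusted p = 0.02088), where 16.2% of features were higher. Pdgfb, a ligand of Pdgfrb, was at 3.31 and -0.14 in KSL Vav-Etv2 cells, against -0.21 and 0.04 in controls, high on array 1 only. Of 11 collagen biosynthesis genes tested, 3 were higher in KSL control than Gr control cells (Serpinh1, Plod2 and Crtap) and 4 lower (Plod1, Plod3, Pcolce and Adamts2), where 16.2% of features were higher and 18.5% lower. Among 6 other collagens tested, the basement membrane chains Col4a1, Col4a2 and Col18a1 were higher in KSL control cells, by 4.57, 3.73 and 4.36 log2, which is 3 of 6 against the same 16.2%. Serpinh1, Plod2 and Col18a1 passed the filter only through the KSL arrays and Adamts2 only through the Gr arrays. Their differences between cell types are thus partly built into the filter and rest on signals near background, as does that of Col4a1 on Gr control 1. Of 4 collagen receptors tested, 0 were called by limma between the control populations (0 had an unadjusted p under 0.05), and Itga1 and Lair1 were lower in KSL than Gr cells of Vav-Etv2 mice (limma adjusted p = 0.03279 and 0.02032), where 13.8% of features were lower. Over these lists 16 of 36 tested genes were called between KSL and Gr control cells, where 34.7% of features were called. The 16 include Kit, a marker used to sort the KSL cells. All 16 differed in the same direction against each Gr control array. They were chosen by a fit to both of these arrays, so that agreement is largely fixed by the choice. Without Gr control 2, the array at odds with its label, 13 were called (not Col4a2, Col18a1 or Pdgfa), and without Gr control 1, 6 were (Dpp4, Kit, Cbl, Plod2, Plod3 and Serpinh1).

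Other genes shared the pattern of a member over the 8 arrays, by Pearson's r among 9257 features with a gene name and an SD of at least 0.5 log2, given as a description for the 5 members detected above background on 6 or more arrays, which leaves out Kitl, Col1a1 and Pdgfrb. Sparc was most like Tspan18 (r = 1.00), Cdh5 (0.99) and Ushbp1 (0.99). Col1a2 was most like Hoxc6, Ptn and Phlda2 (0.97 each). Outside the KSL controls, where Col1a2 is highest, these genes lay below each array's lowest signal well above background. They passed the filter only through the KSL controls, so this likeness is largely built into the filter. Hoxc6, for one, was at -3.29 and -3.71 in KSL controls and at -6.05 and -6.65 in KSL Vav-Etv2 cells. Acta2 was most like Slco4c1, Scnn1a and Cd300ld (1.00 each). Cxcl12 was most like Fcmr (0.94), Scd1 (0.90) and Blvrb (0.90), and Lepr was most like Fxyd1 (0.97), Krtap19-4 (0.97) and Cyp17a1 (0.96). The arrays share groups and, for Sparc, 1 extreme array, so the coefficients carry few independent points.

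Since Etv2 is an ETS factor, the 250 bases before the start of the members were searched for CCGGAA and AGGAAG on both strands. The promoters are RefSeq's on GRCm38.p6, and the table held 8 of the 10 members (not Col1a1 or Pdgfrb). The Kitl promoter held CCGGAA and 1 of 2 Lepr promoters held AGGAAG, where 12.0% and 29.5% of 32851 promoters of that length hold them. The promoters of the members that differed most between KSL genotypes, Sparc and Col1a2, held neither, which says only that these letters are not in these windows. They are shown 5′ to 3′ in lower case because no match was found.
Sparc, minus strand, chr11:55420081-55420330: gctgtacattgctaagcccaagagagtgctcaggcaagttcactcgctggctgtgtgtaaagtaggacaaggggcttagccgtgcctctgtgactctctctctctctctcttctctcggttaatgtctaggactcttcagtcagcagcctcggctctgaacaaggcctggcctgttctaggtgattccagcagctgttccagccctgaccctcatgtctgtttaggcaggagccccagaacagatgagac
Col1a2, plus strand, chr6:4505368-4505617: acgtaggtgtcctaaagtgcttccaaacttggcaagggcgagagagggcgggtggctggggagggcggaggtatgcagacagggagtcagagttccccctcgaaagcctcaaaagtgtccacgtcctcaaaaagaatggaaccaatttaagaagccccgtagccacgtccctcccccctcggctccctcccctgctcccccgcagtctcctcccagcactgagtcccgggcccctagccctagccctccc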

How the data were processed

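RNA was measured on 8 one-colour Agilent arrays, 2 for each of 4 groups. Per the file headers, the deposited files hold fluorescence intensity written by version 10.7.3.1 of Agilent Feature Extraction (the submitters' processing notes give 10.7), background-subtracted and spatially detrended but not scaled between arrays. The deposited mark columns hold other values, 0 or 1 per spot. The authors' deposited value table holds log2 values, and 99.8% of them lay within 0.01 log2 of the signals centred within each cell type. That table was therefore an alternative for the comparisons within a cell type only.

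Control spots and non-uniform spots were left out, log2 spots of a probe were averaged, and each array's 75th percentile was subtracted. Probes well above background on at least 2 of 8 arrays were kept, and the probe with the highest mean stood for its gene, which gave 23227 features. limma 3.58.1 in R 4.3.3 was fitted to all 8 arrays with 1 coefficient per group (4 residual degrees of freedom), with moderated standard errors (SE), and a feature was called where its Benjamini-Hochberg adjusted p lay under 0.05. A fold against a group not well above background is a lower bound, set by each array's lowest signal well above background or the probe's own if higher. The fit was tested on simulated data. The number of arrays limits the precision.

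The members, the gene lists and the naming rule were chosen with earlier results of these data known. The naming rule took all member probes, per list the called genes and those with the largest genotype differences, and the 3 features most like each member that was well above background on at least 6 of 8 arrays. Not all list genes it took are named above. Folr2, a macrophage list gene that passed the filter only through Vav-Etv2 arrays, was called higher in Gr Vav-Etv2 than Gr control cells (at least 37.1-fold, limma adjusted p = 0.04741). Ackr3, Cxcr4 and the sort and stromal markers were named as defining genes of their lists. Alternatives were other background corrections, scalings, filters, probe rules and fits, single arrays left out, a replicate block and, chosen after seeing the data, a term for sex and single Gr controls left out for the partner lists.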

Additional observations from a re-analysis of the deposited data

How the results depend on the processing

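No alternative gave a member a call in either genotype comparison or in the test of their difference. Pdgfrb and Col1a2 in control cells, and Pdgfrb and Acta2 in Vav-Etv2 cells, kept their calls between KSL and Gr under every alternative run. Of 740 member values under alternatives, 690 kept direction and side of the threshold, 35 changed sign, 12 lost a call and 3 gained one. The cause was not tested, except that leaving out arrays leaves fewer samples.

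The number of features called moved most. KSL Vav-Etv2 against control had 17 calls with normexp, 27 with median scaling, 50 with quantile normalisation, 11 with the floor, 0 with a filter on all 8 arrays and 67 with the sex term (chosen after seeing the data), and 0 to 37 with single arrays left out. Gr Vav-Etv2 against control had 0 calls with normexp, the filter on all 8 arrays or only the compared arrays, 1 with no filter, each probe, a trended prior, the replicate block or the sex term, and 0 to 2 with single arrays left out. The test of the difference had 6 with normexp, 2 with median scaling, 5 with quantile or the sex term, 0 with the floor, no filter, the filter on all 8 arrays, the trend or the block, and 0 with any single array left out. KSL against Gr had 13581 calls in controls with the sex term (2213 to 9389 with single arrays left out), and in Vav-Etv2 cells 10834 with the block and 12501 with the sex term (2246 to 7279).

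The labels number the arrays 1 and 2 in each group. The replicate 1 minus 2 differences correlated at 0.07 between the KSL genotypes and 0.66 between the Gr genotypes over 23227 features, and with 2 pairs the samples share only a number. With the replicate block, Cxcl12 between KSL and Gr controls was -0.20.

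With single arrays left out, the uncalled log2 differences that changed sign had these ranges. For the difference of effects they were Lepr -0.75 to 0.61, Acta2 -1.98 to 0.30, Kitl -0.094 to 0.65, Col1a1 -0.63 to 0.77. For the KSL minus Gr control comparison they were Lepr -0.86 to 0.50. For the KSL genotype comparison they were Cxcl12 -2.13 to 1.19, Col1a1 -0.54 to 0.0214, Kitl -0.16 to 0.59. For the KSL minus Gr Vav-Etv2 comparison they were Cxcl12 -2.10 to 1.22, Lepr -0.51 to 0.0072. For the Gr genotype comparison they were Lepr -0.98 to 0.38, Kitl -0.40 to 0.28, Col1a1 -1.02 to 0.37, Col1a2 -1.22 to 0.45, Acta2 -1.21 to 0.41, Pdgfrb -0.24 to 0.92. With normexp, Cxcl12 and Col1a1 differed by 0.0114 and 0.0231 between KSL genotypes and Cxcl12 by 0.0241 between KSL and Gr Vav-Etv2 cells. With quantile normalisation Lepr differed by 0.10 between KSL and Gr controls. With the floor, Kitl differed by -0.26 between KSL genotypes and by -0.23 in the test of the difference. Sparc between KSL and Gr Vav-Etv2 cells (limma adjusted p = 0.06868) was called with normexp (0.04321), median scaling (0.04606) and without KSL Vav-Etv2 2 (0.01762). Signals near background limit Kitl, Col1a1 in KSL cells and Pdgfrb in Gr cells.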
